A study of Homo sapiens with 12 samples.

Results

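The enzymes that build mucin-type O-glycans were followed as a set of 50 genes, out of 39368 gene symbols in each count table. They were chosen by symbol alone: the numbered GALNT, GCNT, ST3GAL, ST6GAL, ST6GALNAC and FUT genes, plus C1GALT1 and C1GALT1C1. The set holds 18 initiating GalNAc-transferases, 2 genes of core 1 synthesis, 5 branching GCNT enzymes, 14 sialyltransferases and 11 fucosyltransferases. CAL27 and HSC3 are HPV-negative head and neck squamous cell carcinoma (HNSCC) lines. Both carried a doxycycline (DOX)-inducible shRNA against MUC1 in the pLKO-tet-puro vector, selected with puromycin. They were treated for 7 days with 0.1% DMSO as vehicle or with 500 ng/ml DOX, and poly(A) RNA was sequenced from 3 libraries in each of the 4 groups. DOX exposure and MUC1 silencing cannot be told apart in these 12 libraries, because no DOX-treated control shRNA library was analysed here.

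O-glycosylation of mucins starts in the Golgi, where a GALNT enzyme places GalNAc on serine or threonine. C1GALT1, which needs the chaperone C1GALT1C1 (COSMC), adds galactose to give core 1, and GCNT enzymes such as GCNT1 and GCNT3 add a branching GlcNAc to give core 2. Sialyltransferases and fucosyltransferases cap the chains, and ST6GALNAC1 can stop synthesis early by forming sialyl-Tn. Several members also, or mainly, work on other glycans: FUT8 adds core fucose to N-glycans, ST6GAL1 caps mostly N-glycans and ST3GAL5 makes the ganglioside GM3.

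MUC1, the targeted transcript and itself a substrate of these enzymes, was at 58.4, 53.1 and 54.4 CPM in the CAL27 vehicle libraries and at 2.92, 2.76 and 3.25 CPM with DOX. CPM here is the count scaled to library size with TMM factors over all 12 libraries. In HSC3 it was at 1.66, 1.97 and 1.64 CPM with vehicle and 0.310, 0.267 and 0.132 CPM with DOX. The groups did not overlap in either line, and MUC1 decreased by 4.21 on the log2 scale in CAL27 (edgeR adjusted p = 1.6e-19) and decreased by 2.88 in HSC3 (edgeR adjusted p = 2.0e-04).

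Library totals ran from 92866845 to 126328662 counts in CAL27 and from 89730914 to 169065103 in HSC3. Counts per sampled molecule were estimated from how often weakly expressed genes, as judged from the other libraries of the group, had no count. The estimate was 2.66 to 3.55 in CAL27, 4.40 to 7.66 with vehicle in HSC3, and 9.14 to 17.5 with DOX in HSC3. The HSC3 DOX replicate 1 library, at 17.5, stood apart. Small counts in HSC3 may therefore stand for single molecules. The squamous markers KRT5, KRT14, KRT6A, KRT17, TP63 and DSG3 were present in both lines, and the summed CPM of all 8 squamous markers fell from 6302–6575 to 2970–3183 with DOX in CAL27 and from 5885–6593 to 2688–3124 in HSC3. KRT5 made up the largest part of this sum. Of the 8 markers, 6 fell and 1, EPCAM, rose in each line, EPCAM by 0.40 in CAL27 and 0.87 in HSC3 on the log2 scale, while CDH1, at 0.03 and -0.02, did not pass. The part of this shift in the results on the enzymes was not tested. Leukocyte markers summed to at most 0.536 CPM in any library. Endothelial markers summed to 8.82–15.3 CPM in CAL27, nearly all of it CDH5, and to at most 0.520 CPM in HSC3. The 5 mesenchymal markers summed to 52.8–63.7 CPM in CAL27, mostly CDH2, and to 335.6–369.5 CPM in HSC3, nearly all VIM. With vehicle, only VIM was higher in HSC3, by 10.44 on the log2 scale. The other 4 were lower there, with log2 differences of -4.55 for CDH2, -0.87 for COL1A1, -11.06 for COL1A2 and -4.09 for PDGFRB. All 5 had an edgeR adjusted p under 0.05. These are bulk libraries, so fewer cells of a type and less RNA per cell cannot be told apart.

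Of the 50 genes, 34 averaged at least 1 CPM with vehicle in CAL27 and 31 in HSC3. FUT5, GALNT17 and ST6GAL2 had no count in any library. A total of 4 members had no count in any CAL27 vehicle library and 10 had none in any HSC3 vehicle library. Among these, 82.5% of the FUT5 exons and 93.4% of the GALNT4 exons overlap another gene on the same strand. GALNT8 and FUT7 have such overlaps in part. GALNT17, ST6GAL2, FUT9, GALNT5, GALNT13 and ST6GALNAC3 have none. How reads in such overlaps were counted is not given, so no count for an overlapped gene may not mean no transcript. This was not tested. The filter on low counts left 40 members to test in CAL27, 36 in HSC3 and 41 in comparisons of the lines.

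The vehicle libraries of the lines were compared for the levels without DOX. In the comparison of HSC3 with CAL27, 12 of 41 members tested were lower and 16 higher in HSC3 at an edgeR adjusted p under 0.05, where 32.3% and 30.6% of all genes tested were. With a 2-fold limit as well, 10 were lower and 9 higher, against 18.7% and 13.2% of all genes tested. The libraries of the lines did not overlap for 16 members lower and 17 higher in HSC3, against 40.1% and 34.2% of all genes tested. The line and its count table cannot be told apart.

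**Figure D1:**
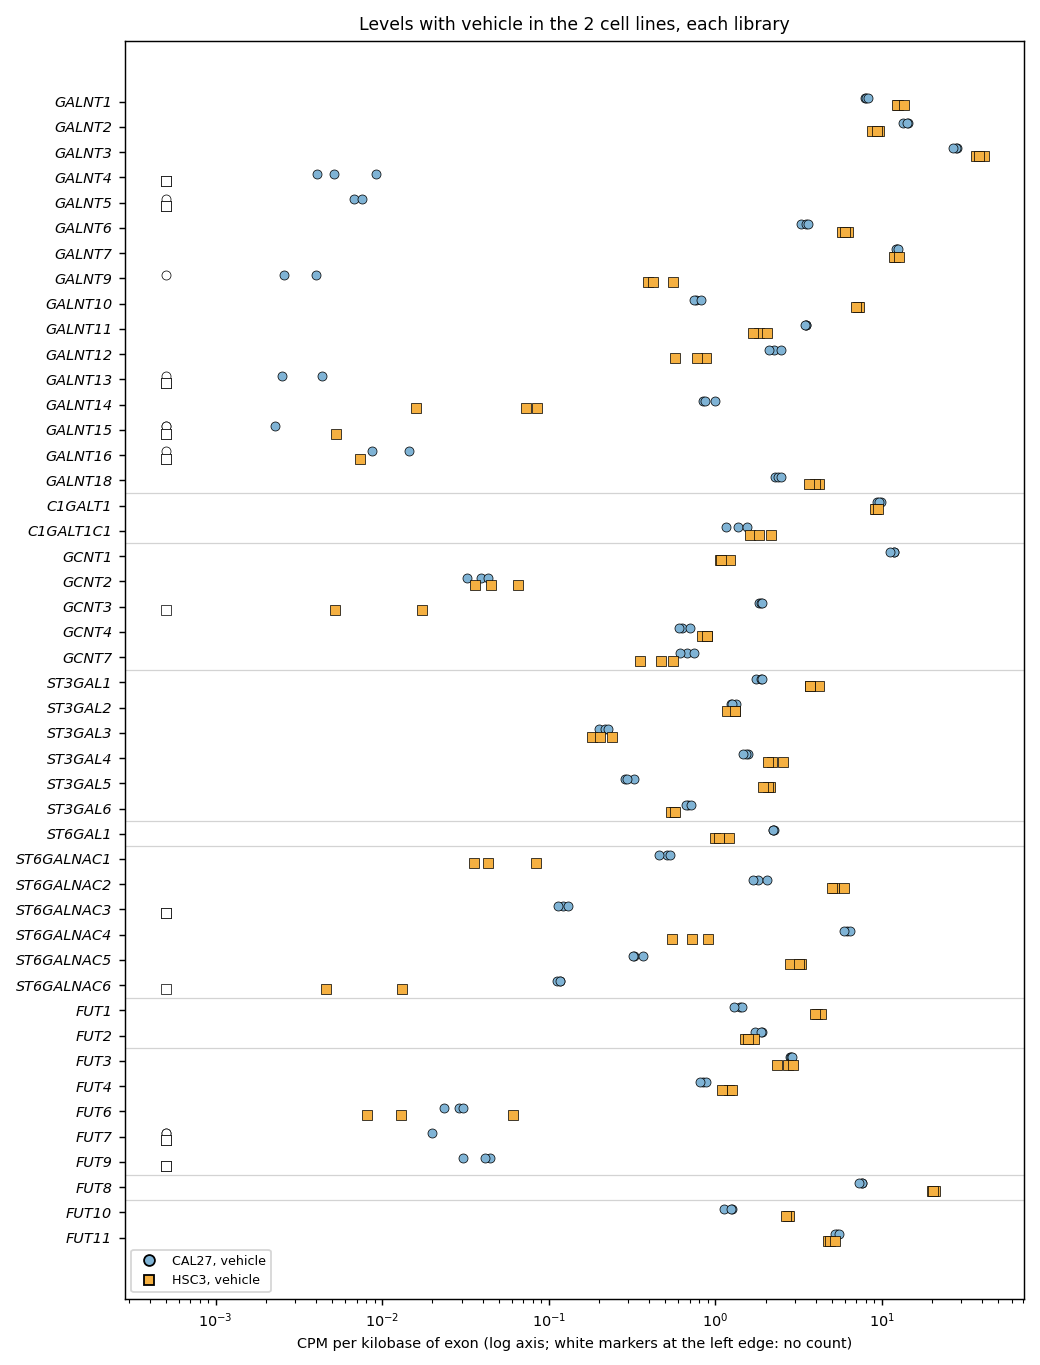
Level of each detected member in the 3 vehicle libraries of each line, in CPM per kilobase of exon on a log axis; white markers at the left edge are libraries with no count. GALNT3 lies highest in both lines, and GCNT1 and ST6GALNAC4 lie to the left in HSC3.

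The initiating class was led by GALNT3, at 27.6 ± 0.80 CPM per kilobase of exon in CAL27 and 38.4 ± 2.15 in HSC3 (SD, n = 3 in each). In CAL27 GALNT2 followed at 14.0 CPM per kilobase, then GALNT7 at 12.3 and GALNT1 at 8.09. In HSC3 the order was GALNT1 at 12.8, GALNT7 at 12.2 and GALNT2 at 9.20. GALNT7 differed by -0.02 on the log2 scale between lines (95% interval -0.14 to 0.09, edgeR adjusted p = 0.76). GALNT10 separated the lines most clearly, at 8.02, 7.81 and 8.64 CPM in CAL27 and 75.8, 76.6 and 73.2 CPM in HSC3. It was higher in HSC3 by 3.20 ± 0.070 on the log2 scale (SE, edgeR adjusted p = 8.1e-15). GALNT9 had 4, 2 and 0 counts in the CAL27 vehicle libraries and 463, 233 and 362 in HSC3. GALNT14 went the other way, at 3.66, 4.30 and 3.78 CPM in CAL27 and 0.0694, 0.316 and 0.369 CPM in HSC3, a log2 difference of -3.97 (edgeR adjusted p = 7.2e-06). None of these 3 genes overlapped between the lines.

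C1GALT1 was at 76.6, 72.3 and 74.8 CPM in CAL27 and 71.7, 70.6 and 73.6 CPM in HSC3, ranges that overlapped. Per kilobase it was at 9.59 ± 0.274 CPM in CAL27 and 9.26 ± 0.190 in HSC3, a log2 difference of -0.05 (95% interval -0.22 to 0.12, edgeR adjusted p = 0.63). C1GALT1C1 was at 2.48, 2.81 and 2.10 CPM in CAL27 and 3.92, 2.92 and 3.32 CPM in HSC3, without overlap. Its log2 difference of 0.46 (95% interval 0.08 to 0.85) did not pass the test (edgeR adjusted p = 0.053) and passed under 3 of 12 alternatives.

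The 5 GCNT genes summed to 14.8 ± 0.311 CPM per kilobase in CAL27 and 2.51 ± 0.138 in HSC3. GCNT1, which accounted for 78.2% of the CAL27 sum, was at 109.5, 108.9 and 103.7 CPM in CAL27 and 9.81, 11.3 and 9.93 CPM in HSC3. Its log2 difference, HSC3 minus CAL27, was -3.38 ± 0.075 (SE, edgeR adjusted p = 9.2e-15). GCNT3, which can also form core 4, had 1642, 1311 and 1501 counts in the CAL27 vehicle libraries and 13, 0 and 4 in those of HSC3. GCNT4 was a little higher in HSC3, by 0.43 on the log2 scale (edgeR adjusted p = 0.0021).

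The enzymes that add α2,6-linked sialic acid to GalNAc reached like sums, 9.09 ± 0.528 CPM per kilobase in CAL27 and 9.25 ± 0.641 in HSC3, from different members. ST6GALNAC4 led in CAL27 with 67.9% of the sum and ST6GALNAC2 led in HSC3 with 58.2%. In CPM, without division by exon length, ST6GALNAC5 averaged above ST6GALNAC2 in HSC3, at 18.68 and 16.15. ST6GALNAC4 was at 16.3, 17 and 15.5 CPM in CAL27 and 2.38, 1.90 and 1.44 CPM in HSC3. ST6GALNAC5 was at 1.96, 2.23 and 1.93 CPM in CAL27 and 17, 19.8 and 19.2 CPM in HSC3. Neither pair of groups overlapped, and the log2 differences were -3.09 ± 0.180 and 3.20 ± 0.140 (SE). ST6GALNAC3 had 120, 102 and 99 counts in CAL27 and none in any HSC3 library, with vehicle or DOX. ST6GALNAC6 had 85, 64 and 75 counts in CAL27 and 8, 2 and 0 in HSC3, and 47.0% of its exons overlap another gene on the same strand. ST6GALNAC2 was at 5.40, 6.14 and 5.07 CPM in CAL27 and 15.5, 17.8 and 15.1 CPM in HSC3, and 39.8% of its exons have such an overlap. Both genes were without overlap between the lines.

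Among the other capping enzymes, ST3GAL1, which sialylates core 1, led the α2,3 class per kilobase of exon in both lines. It was at 15.5, 16.5 and 16.7 CPM in CAL27 and 36.9, 32.5 and 32.5 CPM in HSC3, higher by 1.07 on the log2 scale (edgeR adjusted p = 2.2e-08). ST3GAL5 was at 4.65, 5.31 and 4.78 CPM in CAL27 and 34.6, 33.7 and 31.5 CPM in HSC3, higher by 2.76 ± 0.095 (SE, edgeR adjusted p = 9.8e-13). Neither gene overlapped between the lines. FUT8 was at 53.2, 52.7 and 50.8 CPM in CAL27 and 139.3, 145.4 and 140.6 CPM in HSC3, higher by 1.44. FUT1, which makes H antigen, was at 6.06, 6.23 and 5.59 CPM in CAL27 and 17.6, 18.6 and 17.3 CPM in HSC3, higher by 1.58. FUT8 and FUT1 were also without overlap. FUT3, the Lewis enzyme, was at 8.74, 8.88 and 8.96 CPM in CAL27 and 7.30, 8.43 and 9.05 CPM in HSC3, groups that overlapped. FUT11 led its pair with FUT10, at 26.3, 25.9 and 27.3 CPM in CAL27 and 23.3, 23.9 and 25.6 CPM in HSC3, a log2 difference of -0.13 that did not pass (edgeR adjusted p = 0.16). FUT9 had 58, 66 and 69 counts in CAL27 and none in the HSC3 vehicle libraries.

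In CAL27/tet-MUC1shRNA cells, DOX lowered 13 and raised 8 of the 40 members tested (edgeR adjusted p under 0.05), where 21.8% of all genes tested fell and 22.6% rose. Past 2-fold, 4 members fell and 0 rose, against 5.11% and 1.31% of all genes tested. The median log2 change of the members was -0.076, and that of all genes tested -0.005. DOX and vehicle libraries did not overlap for 15 members that were lower and 9 that were higher, against 25.9% of all genes tested in each direction. When the 12 libraries shared 1 estimate of the spread, 6 members fell and 5 rose, against 11.3% and 13.3% of all genes tested, and GCNT3, GALNT3, GALNT6, GALNT11, GALNT14, GALNT18, ST3GAL6, ST6GALNAC1 and FUT3 were among those that no longer passed.

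In HSC3/tet-MUC1shRNA cells, 12 of 36 members tested fell and 9 rose (edgeR adjusted p under 0.05), against 15.4% and 13.0% of all genes tested. Past 2-fold, 4 fell and 1 rose, against 4.40% and 1.58%. The median log2 change was -0.196, and -0.010 over all genes tested. Libraries did not overlap for 13 members that were lower and 11 that were higher, against 22.5% and 20.2% of all genes tested. Without DOX replicate 1, the library that stood apart, 13 fell and 9 rose, against 19.3% and 17.5% of all genes tested. Past 2-fold, 2 fell and 1 rose without it, against 5.02% and 1.82%.

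**Figure D2:**
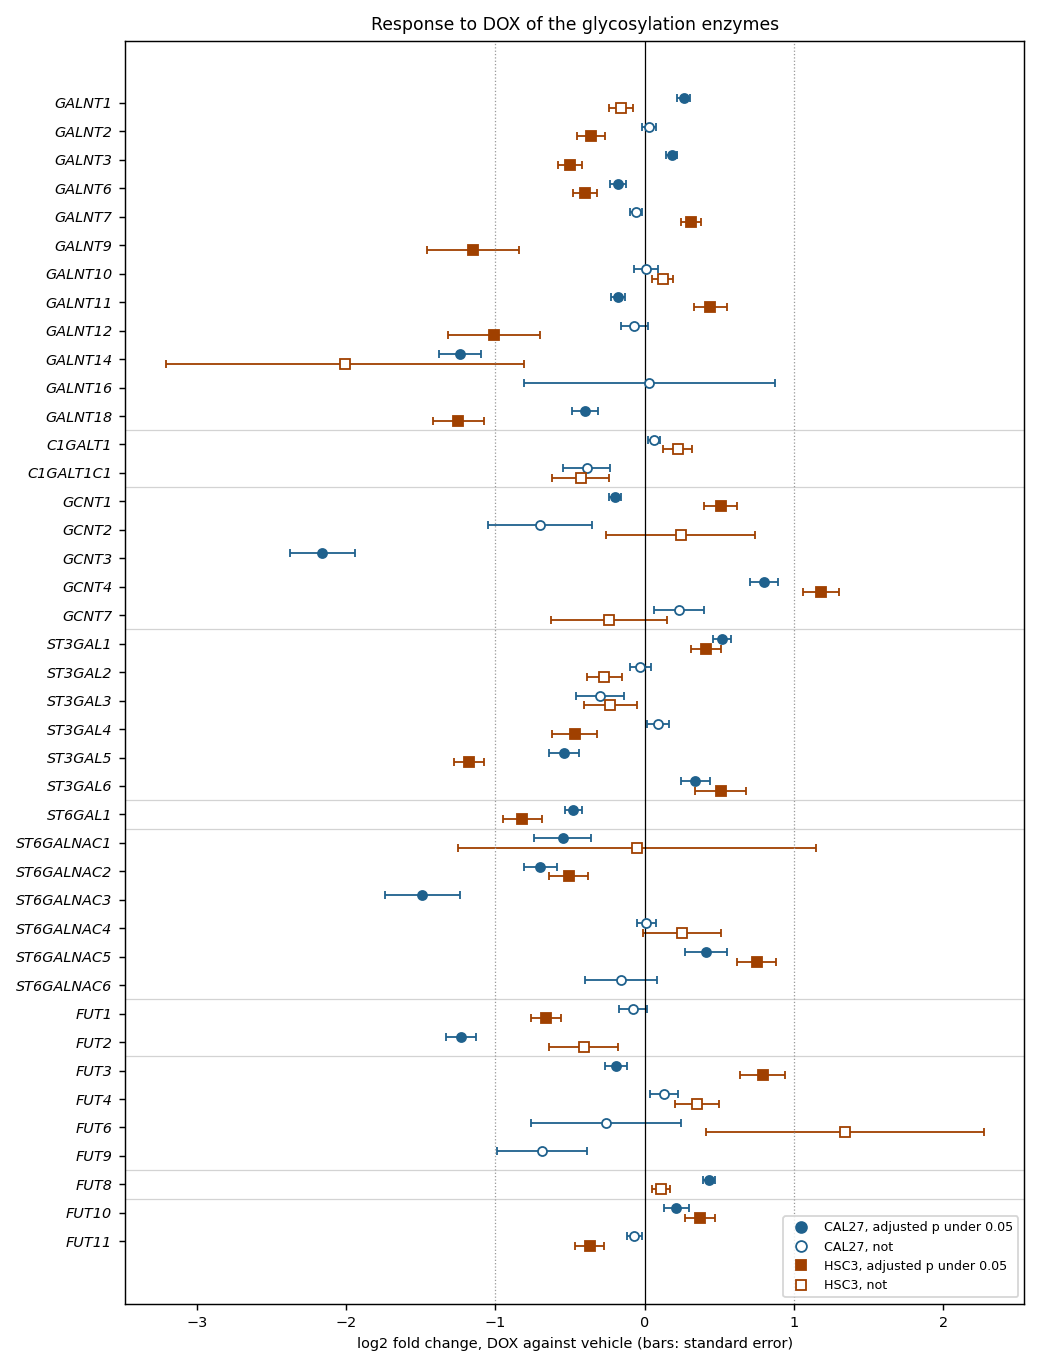
Log2 fold change with DOX of each member tested, with its standard error, for CAL27 (circles) and HSC3 (squares); filled markers passed an adjusted p of 0.05 and dotted lines mark 2-fold. GCNT3 lies farthest left among the filled CAL27 markers, and GCNT4 lies to the right in both lines.

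Of the 11 initiating enzymes tested in each line, 4 fell and 2 rose in CAL27, where 21.8% of all genes tested fell and 22.6% rose. In HSC3, 6 fell and 2 rose, against 15.4% and 13.0% of all genes tested. GALNT3 was at 129.2, 128.2 and 122.4 CPM with vehicle and 147.6, 139.1 and 143.0 CPM with DOX in CAL27, a rise of 0.18 ± 0.038 on the log2 scale (edgeR adjusted p = 8.1e-04). In HSC3 it went from 186.8, 167.4 and 174.6 CPM to 140.8, 117.8 and 117.9 CPM, and decreased by 0.50 on the log2 scale (edgeR adjusted p = 8.2e-04). The groups did not overlap in either line, and the directions were opposite. GALNT1 rose by 0.26 in CAL27 (edgeR adjusted p = 7.0e-05), and its change of -0.16 in HSC3 did not pass (edgeR adjusted p = 0.16). The class sum per kilobase was 75.3 ± 0.550 with vehicle and 78.4 ± 2.59 with DOX in CAL27, and 92.7 ± 2.02 and 78.3 ± 3.25 in HSC3.

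GALNT14 was the initiating enzyme past 2-fold in CAL27, going from 3.66, 4.30 and 3.78 CPM to 1.62, 2.00 and 1.36 CPM without overlap. It decreased by 1.24 on the log2 scale (edgeR adjusted p = 4.4e-07), with an adjusted p of 0.060 when the spread came from the 12 libraries together. GALNT18 fell in both lines. It was at 8.26, 8.58 and 8.98 CPM with vehicle and 7.16, 5.93 and 6.47 CPM with DOX in CAL27, and at 15.2, 14.4 and 13.2 CPM against 4.39, 6.72 and 6.90 CPM in HSC3. It decreased by 0.40 in CAL27 (edgeR adjusted p = 5.4e-04) and by 1.25 in HSC3 (edgeR adjusted p = 3.0e-04).

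GALNT9 and GALNT12 were the other initiating enzymes past 2-fold in HSC3. GALNT9 went from 4.01, 2.83 and 3.03 CPM to 0.816, 1.80 and 1.86 CPM, and GALNT12 from 1.82, 2.79 and 2.46 CPM to 0.768, 1.11 and 1.63 CPM. The groups did not overlap for either gene. Without DOX replicate 1, neither was past 2-fold. GALNT9 decreased by 1.15 (edgeR adjusted p = 0.018) and GALNT12 by 1.01 (edgeR adjusted p = 0.030), and each lost the call when 1 vehicle library was left out, at an adjusted p of 0.096 without replicate 1 for GALNT9 and 0.13 without replicate 2 for GALNT12. Opposite-strand annotation covers 20.9% of the GALNT12 exons. GALNT6 fell by 0.18 in CAL27 and by 0.40 in HSC3, GALNT11 fell by 0.18 in CAL27 and rose by 0.44 in HSC3. GALNT7 rose by 0.31 in HSC3 (edgeR adjusted p = 0.0064), and GALNT2 fell by 0.36 there (edgeR adjusted p = 0.017).

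C1GALT1 and C1GALT1C1 did not pass the test in either line. The log2 changes of C1GALT1 were 0.06 (95% interval -0.02 to 0.14) in CAL27 and 0.22 (0.02 to 0.42) in HSC3. Those of C1GALT1C1 were -0.39 (-0.71 to -0.07) and -0.43 (-0.81 to -0.05). These intervals use a normal distribution and are narrower than the edgeR test implies, so an interval without 0 is not a call.

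The branching enzymes held the largest decrease of the set in CAL27. GCNT3 went from 11.9, 12.1 and 12.4 CPM with vehicle to 3.85, 1.94 and 2.42 CPM with DOX, without overlap, and decreased by 2.16 ± 0.220 on the log2 scale, or 4.46-fold (edgeR adjusted p = 2.7e-04). When the spread was estimated from the 12 libraries together, the adjusted p was 0.17. The HSC3 vehicle libraries held 13, 0 and 4 counts of GCNT3. Those treated with DOX held 395, 0 and 8, so 1 library, DOX replicate 1, carried nearly all of them. The gene did not pass the filter in HSC3 and its change there was not tested.

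GCNT4 rose in both lines. It was at 3.70, 3.57 and 4.12 CPM with vehicle and 6.82, 6.85 and 6.17 CPM with DOX in CAL27. In HSC3 it went from 5.25, 4.88 and 5.25 CPM to 10.7, 12.2 and 11.9 CPM. The groups did not overlap in either line, and the log2 increases were 0.80 ± 0.096 (edgeR adjusted p = 8.3e-07) and 1.18 ± 0.12 (edgeR adjusted p = 4.2e-05). GCNT1 fell by 0.20 in CAL27, to 94.7, 91.8 and 95.3 CPM, and rose by 0.51 in HSC3, to 16.1, 14.5 and 13.7 CPM. With DOX, GCNT4 was the highest GCNT gene per kilobase in HSC3, at 1.98 ± 0.134, while GCNT1 remained the highest in CAL27 at 10.2 ± 0.201. In CPM, without division by exon length, GCNT1 was still above GCNT4 in HSC3 with DOX, at means of 14.74 and 11.64.

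**Figure D3:**
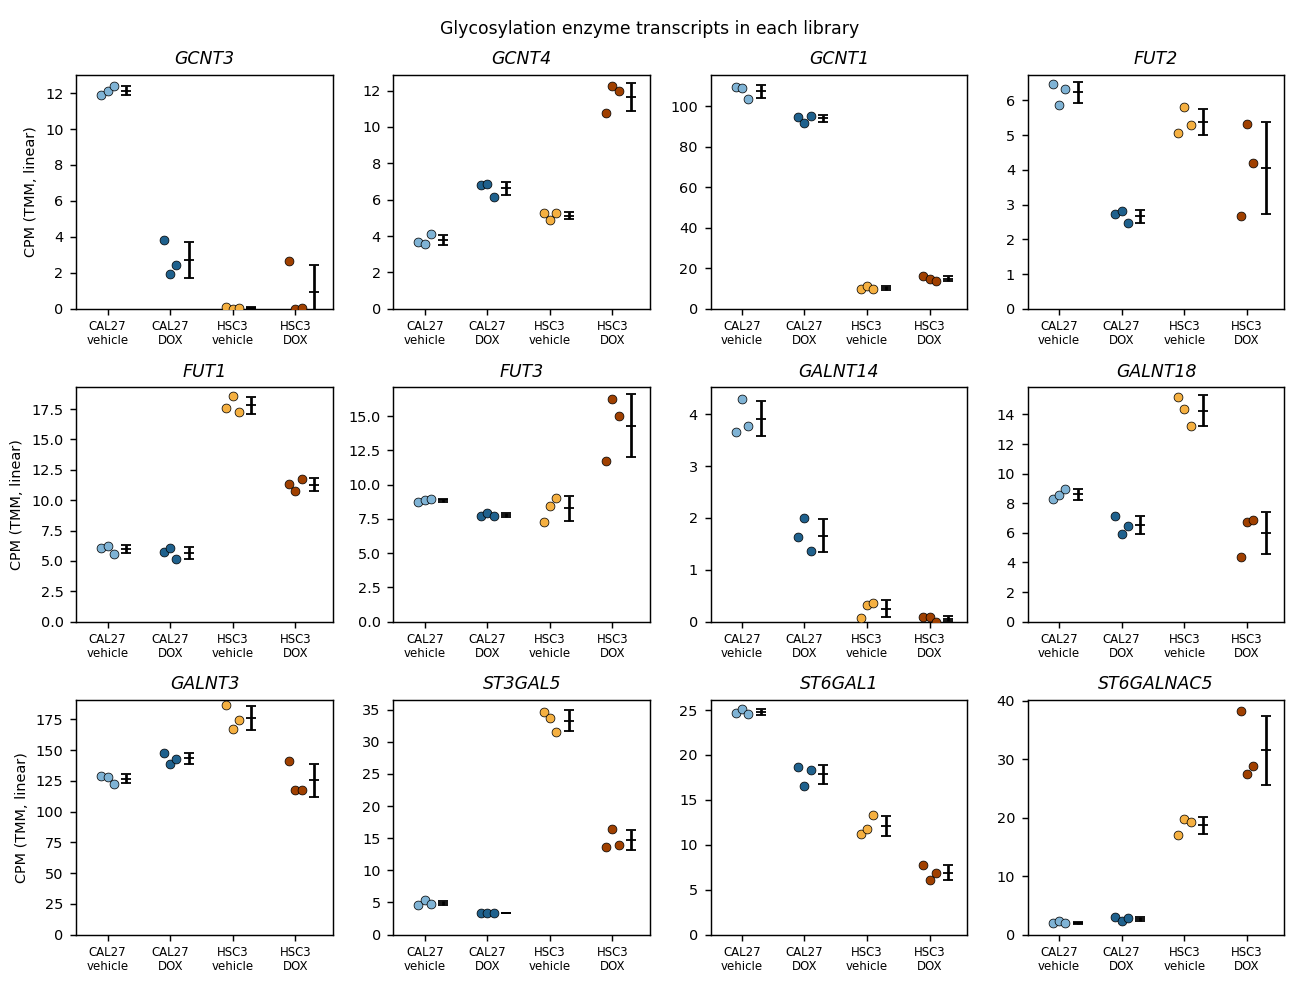
CPM of 12 members in each library on linear axes that start at 0, with the mean and SD of 3 libraries beside the points. GCNT3 and FUT2 are lower with DOX in CAL27, GCNT4 is higher with DOX in both lines, and a single HSC3 DOX library carries GCNT3.

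**Figure D4:**
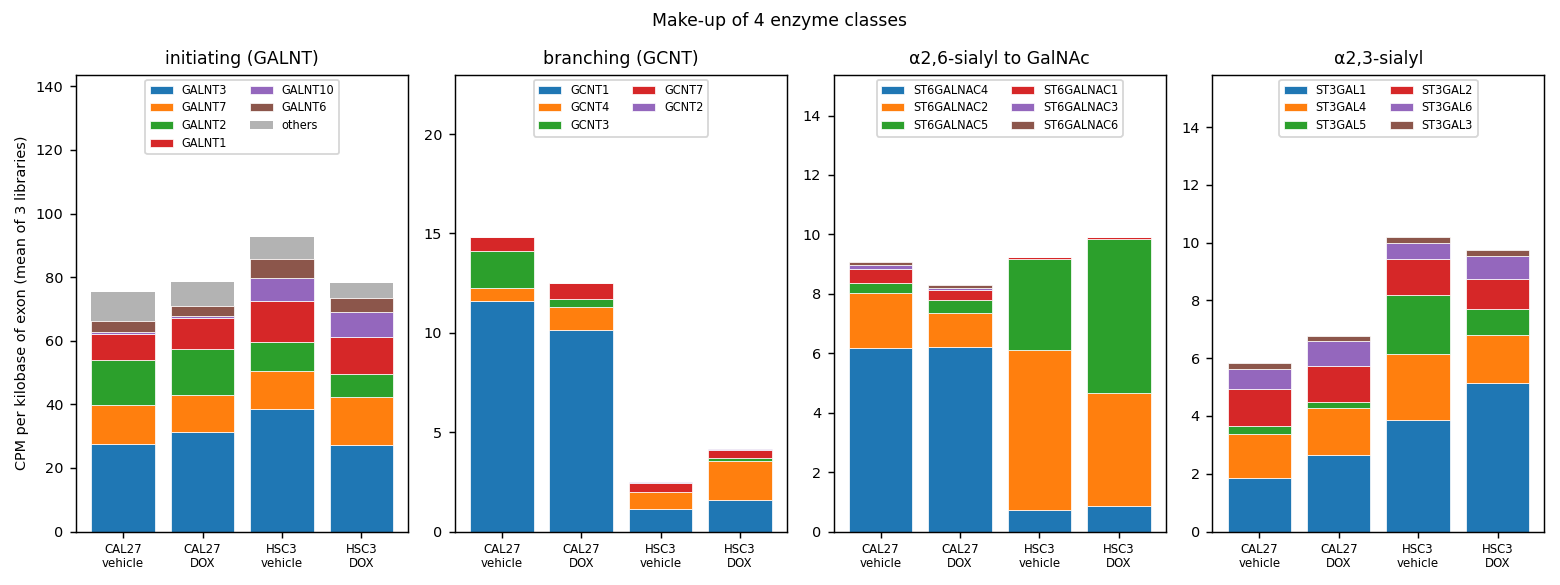
Stacked mean CPM per kilobase of exon (3 libraries) of the members of 4 enzyme classes in each group. The GCNT sum is 14.8 in CAL27 and 2.51 in HSC3 with vehicle, and ST6GALNAC5 takes the largest share of its class in HSC3 with DOX.

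ST6GALNAC3, which adds a further sialic acid to core 1, fell in CAL27 from 0.870, 0.942 and 0.817 CPM to 0.344, 0.349 and 0.249 CPM, without overlap and by 1.49 on the log2 scale (edgeR adjusted p = 5.1e-05). ST6GALNAC2 fell in both lines, by 0.70 and 0.51. ST6GALNAC5, which acts on gangliosides, rose in both, from 1.96, 2.23 and 1.93 CPM to 3.0, 2.33 and 2.80 CPM in CAL27 and from 17, 19.8 and 19.2 CPM to 38.3, 27.5 and 28.8 CPM in HSC3. Its log2 increases were 0.41 (edgeR adjusted p = 0.018) and 0.75 (edgeR adjusted p = 0.0011). ST6GALNAC1 fell by 0.55 in CAL27 (edgeR adjusted p = 0.023) and had at most 38 counts in any HSC3 library. ST6GALNAC4 changed by 0.01 in CAL27 (95% interval -0.12 to 0.13) and 0.25 in HSC3 (-0.27 to 0.77) and did not pass.

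In the α2,3 class, ST3GAL1 and ST3GAL6 rose and ST3GAL5 fell in both lines. ST3GAL5 went from 4.65, 5.31 and 4.78 CPM to 3.39, 3.38 and 3.35 CPM in CAL27 and from 34.6, 33.7 and 31.5 CPM to 13.7, 16.5 and 14.0 CPM in HSC3. These groups did not overlap, and the decreases were by 0.54 (edgeR adjusted p = 1.7e-04) and by 1.18 (edgeR adjusted p = 1.1e-05). ST3GAL1 rose by 0.52 and 0.41, and ST3GAL6 by 0.34 and 0.51. ST6GAL1 went from 24.7, 25.1 and 24.6 CPM to 18.6, 16.6 and 18.3 CPM in CAL27 and from 11.2, 11.7 and 13.4 CPM to 7.70, 6.05 and 6.89 CPM in HSC3. It decreased by 0.48 (edgeR adjusted p = 7.2e-07) and by 0.82 (edgeR adjusted p = 9.1e-04).

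FUT2, the secretor enzyme, was the fucosyltransferase past 2-fold in CAL27. It was at 6.47, 5.88 and 6.33 CPM with vehicle and 2.72, 2.81 and 2.46 CPM with DOX, without overlap, and decreased by 1.23 on the log2 scale (edgeR adjusted p = 4.3e-09). In HSC3 FUT2 was at 5.06, 5.80 and 5.29 CPM with vehicle and 2.66, 5.31 and 4.20 CPM with DOX, which overlapped (log2 change -0.41, 95% interval -0.86 to 0.04). FUT1 fell in HSC3, from 17.6, 18.6 and 17.3 CPM to 11.3, 10.8 and 11.8 CPM, by 0.66 (edgeR adjusted p = 5.0e-04). In CAL27 its log2 change was -0.08 (95% interval -0.26 to 0.10).

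FUT3 fell slightly in CAL27, to 7.68, 7.93 and 7.73 CPM, and rose in HSC3, to 11.7, 16.2 and 15 CPM. The log2 changes were -0.19 (edgeR adjusted p = 0.044) and 0.79 (edgeR adjusted p = 0.0022). FUT3, FUT5 and FUT6 are close paralogs on chromosome 19, so reads shared among them could be assigned to either or to none. FUT8 rose by 0.43 in CAL27 (edgeR adjusted p = 3.5e-08), and its change of 0.11 in HSC3 did not pass (95% interval -0.02 to 0.23). FUT10 rose by 0.21 and 0.37 (edgeR adjusted p = 0.046 and 0.017). FUT11 fell by 0.37 in HSC3, from 23.3, 23.9 and 25.6 CPM to 21.1, 17.6 and 17.7 CPM. Leaving out 1 library took the adjusted p of FUT10 up to 0.23 in CAL27 and 0.086 in HSC3.

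Across the set, 5 members rose in both lines (FUT10, ST3GAL1, ST3GAL6, ST6GALNAC5 and GCNT4) and 5 fell in both (ST3GAL5, ST6GAL1, ST6GALNAC2, GALNT18 and GALNT6), out of 35 tested in both. Of the 17164 genes tested in both lines, 7.82% rose in both and 8.62% fell in both. The count of 5 that rose rests in part on ST3GAL6 in HSC3 (edgeR adjusted p = 0.044), which passed under 6 of 13 alternatives, and on FUT10 in CAL27, which passed under 5 of 12. GALNT3 rose in CAL27 and fell in HSC3, as did 2.365% of all genes tested in both lines. A further 3 members (FUT3, GCNT1 and GALNT11) did the opposite, against 1.19% of all genes. FUT3 in CAL27 (edgeR adjusted p = 0.044) passed under 4 of 12 alternatives. A total of 10 members were tested in both lines and passed in neither, against 43.8% of all genes tested in both.

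The difference between the lines in response to DOX was tested directly over all 12 libraries. The HSC3 response was lower than the CAL27 response for 9 of 41 members tested and higher for 6 (edgeR adjusted p under 0.05), where 12.3% and 8.25% of all genes tested were. Past 2-fold these were 0 and 1, against 3.02% and 2.19%. FUT3 differed by 0.98 ± 0.170 on the log2 scale (SE, edgeR adjusted p = 5.6e-04), GCNT1 by 0.71 ± 0.098 (edgeR adjusted p = 1.1e-04) and GALNT3 by -0.67 ± 0.095 (edgeR adjusted p = 1.3e-04). The member past 2-fold was GCNT3, which was below the filter in HSC3 and entered this fit through its CAL27 counts. Its fitted difference went from 6.25 to 1.43 without HSC3 DOX replicate 1 (edgeR adjusted p = 0.50), so no size of difference is given for it. Without that library 11 members had a lower and 6 a higher response in HSC3, against 15.2% and 12.3% of all genes tested, and 2 were past 2-fold higher, against 2.84%. GCNT4, which rose in both lines, differed by 0.38 (95% interval 0.09 to 0.67) and did not pass (edgeR adjusted p = 0.085).

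**Figure D5:**
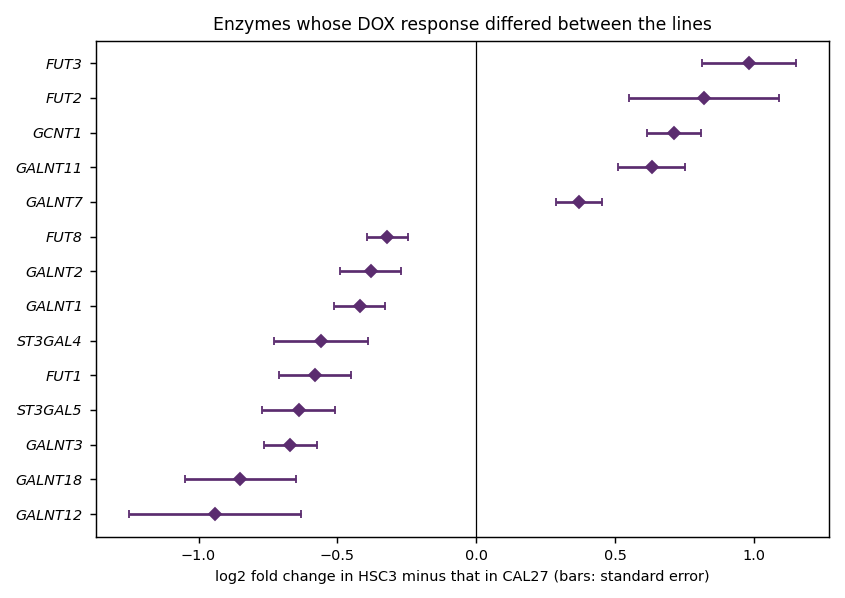
Difference in log2 response to DOX, HSC3 minus CAL27, with its standard error, for the members that passed the test except GCNT3, whose fitted value rests on 1 HSC3 library. FUT3 lies farthest right and GALNT12 farthest left.

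The promoters of GCNT3 and GCNT4 are shown because these branching enzymes changed in opposite directions with DOX in CAL27. RefSeq (GRCh38.p14) gave promoters for 37 of the 50 members. GCNT3 spans chr15:59594875-59640239 and GCNT4 spans chr5:75025346-75052558 in GENCODE (GRCh38). The 250 bases before each RefSeq start lie at chr15:59611533-59611782 on the plus strand and chr5:75052559-75052808 on the minus strand. They were 40.4% G or C for GCNT3 and 68.4% for GCNT4. The GCNT3 stretch lies within the GENCODE span of its gene, and the GCNT4 stretch lies just outside that of its gene. Which starts were used in these cells was not tested, so these values may compare unlike places.
GCNT3: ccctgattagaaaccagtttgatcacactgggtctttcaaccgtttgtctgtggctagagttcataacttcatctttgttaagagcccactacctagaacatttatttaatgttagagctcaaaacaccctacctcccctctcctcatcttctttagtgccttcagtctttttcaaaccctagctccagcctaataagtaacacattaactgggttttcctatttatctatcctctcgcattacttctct
GCNT4: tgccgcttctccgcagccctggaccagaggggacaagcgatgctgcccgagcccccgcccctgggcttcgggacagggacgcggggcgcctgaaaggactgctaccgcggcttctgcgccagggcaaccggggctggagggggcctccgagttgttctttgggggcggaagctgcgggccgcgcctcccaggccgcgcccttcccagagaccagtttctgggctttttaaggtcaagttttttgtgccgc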

How the data were processed

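Total RNA was made into stranded, poly(A)-selected libraries, 3 in each of 4 groups. Per the labels, the authors' tools were FastQC 0.11.9, STAR 2.7.9a, Subread 2.0.1 and featureCounts, with the GRCh38 build. The authors deposited raw counts per gene symbol, in 1 table for each line. The strand setting and annotation used in counting are not given in the sources used here. In the CAL27 table the DOX columns are numbered 4 to 6, so they were assigned to the group and not to a replicate.

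Counts as deposited were tested with edgeR 4.0.16 in R 4.3.3 (TMM, filterByExpr at its minimum count of 10 and minimum total of 15, robust quasi-likelihood test, two-sided). Each line was fitted alone for DOX, and all 12 libraries together for baseline and for the difference in response. Adjusted p-values are Benjamini-Hochberg over all genes tested, with a threshold of 0.05, and 2-fold as a further limit. Standard errors were taken from the fold change and its F statistic. The 95% intervals use a normal distribution with these standard errors, so they are narrower than the edgeR test implies. An interval can leave out 0 where the test's own p is above 0.05. For C1GALT1 in HSC3 the unadjusted edgeR p was 0.057. Permuting 3 against 3 libraries cannot give a p below 0.1, so none is given. The libraries were from cultures in triplicate, and p-values measure the spread between these libraries. Exon lengths and overlaps came from GENCODE 44 (GRCh38), which held 38934 of the 39368 symbols. The length of a gene is that of all its annotated exons merged, not of the transcripts present. Ranks per kilobase can therefore differ from ranks in CPM. The fits were tested on simulated data. Alternatives were other scalings, no filter, DESeq2 1.42.0, counts divided by the estimated counts per molecule, leaving out each library, other sets of libraries and a replicate block. Every member may be named. Per-library values are given for members past 2-fold in a DOX test or in the difference between lines, for the largest baseline differences and for the highest member of each class. Members and lists were chosen with earlier results of these data known. A planned search of member promoters for motifs is not reported here.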

Additional observations from a re-analysis of the deposited data

Results flagged for a closer look

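The response to DOX differed between the lines for 15 members by the test of the difference itself (edgeR adjusted p under 0.05 over all genes tested). Values are the log2 change in HSC3 minus that in CAL27. Among initiating enzymes they were -0.42 for GALNT1, -0.38 for GALNT2, -0.67 for GALNT3, 0.37 for GALNT7, 0.63 for GALNT11, -0.94 for GALNT12 and -0.85 for GALNT18. Among branching enzymes they were 0.71 for GCNT1 and 6.25 for GCNT3. The GCNT3 value is no measure of size: the gene was below the filter in HSC3, 1 HSC3 library carried nearly all its counts there, and without that library the value was 1.43 (edgeR adjusted p = 0.50). It passed under 7 of 17 alternatives. Among sialyltransferases they were -0.56 for ST3GAL4 and -0.64 for ST3GAL5. Among fucosyltransferases they were -0.58 for FUT1, 0.82 for FUT2, 0.98 for FUT3 and -0.32 for FUT8. Of the 15 members, 10 passed under every alternative. FUT2 passed under 6 of 18 alternatives, GALNT12 under 9 of 18, ST3GAL4 under 10 of 18 and GALNT2 under 11 of 18.

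GCNT3 had 395 counts in HSC3 DOX replicate 1 and 0 and 8 in the other DOX libraries. FUT9 had 58 counts in that library and 0 in the others of HSC3, and GALNT13 had 48 and 0. That library also had the highest estimated counts per molecule, 17.5, and the part of this in the result was not tested.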

How the results depend on the processing

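No member that passed changed sign under any alternative run. Of the members that passed, 10 of 21 in CAL27, 11 of 21 in HSC3, 25 of 28 at baseline and 10 of 15 in the difference between lines passed under every alternative. Of the members that did not pass, 3 of 19, 5 of 15, 9 of 13 and 4 of 26 passed under at least 1 alternative, C1GALT1C1 in CAL27 under 5 of 12. In 1 fit over all 12 libraries, CAL27 had 6 lower and 5 higher members, against 11.3% and 13.3% of all genes tested. Past 2-fold, 2 were lower in CAL27, against 2.74%, and 2 were higher in HSC3, against 2.63%. With library totals, 20 members were lower at baseline, against 41.6% of all genes tested. The median of all genes moved from -0.118 to -0.388 there. For the difference between lines, members higher past 2-fold numbered 0 with no filter, 0 with DESeq2 and 2 with counts per molecule. Of all genes tested, 1.46%, 2.65% and 2.61% were. Leaving out 1 library gave 7 to 13 lower and 5 to 11 higher members in HSC3. Of all genes tested, 10.9% to 19.3% were lower and 8.03% to 17.5% higher. Past 2-fold, 2 to 4 members were lower and 1 to 2 higher, against 3.47% to 5.02% and 1.27% to 1.82%. In the difference, 0 to 1 were lower and 0 to 2 higher past 2-fold, against 2.27% to 4.15% and 1.63% to 2.84%. The lowest HSC3 count of lower members was 7, without vehicle replicate 2, against 10.9% of all genes tested. That of higher members was 5, without vehicle replicate 3, against 8.72%. Past 2-fold it was 2 lower, without DOX replicate 1, against 5.02%. The cause was not tested. The replicate block gave 2 members higher past 2-fold in the difference, against 2.89% of all genes tested. Per-gene deviations from the group mean, over 9133 genes, correlated at -0.206, 0.351 and -0.351 between same-numbered HSC3 vehicle and DOX libraries. Such deviations cancel within a group, so their signs are partly forced. The numbers were not taken as pairs, and the CAL27 DOX columns carry no matching number. At up to 17.5 estimated counts per molecule in HSC3, against at most 3.55 in CAL27, a small HSC3 count stands for few molecules.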

Other observations

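Genes around the enzymes were counted from lists. Of all genes tested, 21.8% fell and 22.6% rose in CAL27, and 15.4% fell and 13.0% rose in HSC3. Of 21 sugar nucleotide genes, 4 fell and 6 rose in each line (edgeR adjusted p under 0.05), and UAP1, which makes UDP-GlcNAc, rose by 0.90 on the log2 scale in CAL27 and 0.61 in HSC3. The list's median log2 change was -0.033 in CAL27 and 0.263 in HSC3. Of the genes for chain extension, core 3 and sulfation, 12 fell and 6 rose of 23 tested in CAL27, and 7 fell and 2 rose of 20 in HSC3, with medians of -0.363 and -0.430. GAL3ST4, a galactose sulfotransferase, decreased by 1.92 in CAL27 and by 2.26 in HSC3, and B4GALT6 decreased by 0.77 in CAL27 and by 1.49 in HSC3. B3GNT7 decreased by 2.92 in CAL27, and its change of -1.15 in HSC3 did not pass (edgeR adjusted p = 0.36). B3GALT5 rose by 2.67 in CAL27, from a low mean of 0.238 CPM with vehicle to 1.525 CPM with DOX, and was not tested in HSC3. B3GNT6, the core 3 synthase, had no count in any library.

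Of 12 sialidase and glycosidase genes, 4 fell and 4 rose of 10 tested in CAL27, and 1 fell and 2 rose of 10 in HSC3, with medians of 0.006 and -0.045. FUCA1, a lysosomal fucosidase, rose by 0.92 in CAL27 and 0.89 in HSC3. Among 25 mucins and mucin-like substrates, MUC1 included, 9 fell and 3 rose of 17 tested in CAL27, and 7 fell and 1 rose of 11 in HSC3, with medians of -0.409 and -0.998. The medians of all genes tested were -0.005 and -0.010. MUC4 decreased by 2.77 in CAL27 and was not tested in HSC3. MUC16, at a mean of 201.7 CPM in the CAL27 vehicle libraries and 1.755 CPM in those of HSC3, also fell. It decreased by 0.99 in CAL27 (edgeR adjusted p = 0.036) and by 1.56 in HSC3 (edgeR adjusted p = 0.002). PDPN decreased by 0.39 in CAL27 and by 2.46 in HSC3, and CD55 rose by 1.23 and 0.43. CD24 rose by 0.77 in CAL27 and decreased by 1.00 in HSC3, and the difference between lines passed the test (edgeR adjusted p = 2.3e-07).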
